A study of Rattus norvegicus with 6 samples.

Results

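The genes described here are 10 regulators grouped under the name oncofetal: the RNA-binding proteins Igf2bp1, Igf2bp2 and Igf2bp3, the high mobility group proteins Hmga1 and Hmga2, the transcription factors Sox4 and Sox11, the DNA methyltransferases Dnmt1 and Dnmt3a, and the histone methyltransferase Ezh2. Oncofetal genes are active in the embryo, quiet in most adult tissues and often active again in tumours, and the name describes only part of the 10. In this tissue the adult kept 54.3% of the E19 mean for Sox4, 59.5% for Dnmt1 and 79.2% for Hmga1. The 10 genes were chosen by name, with earlier results of these data known. Each was read from a probe set annotated to that gene alone, the brightest one over the 6 arrays where a gene had several. All 10 had such a probe set, out of 14217 genes that did. The tissue was the choroid plexus of the lateral ventricles of Sprague-Dawley rats, taken at embryonic day 19 (E19), at postnatal day 2 (P2) and from adults, which by the study's methods were males. Each stage was represented by 2 pools of plexuses from several animals, 1 array per pool, and no group carried a treatment or an engineered allele. Values are MAS5 signal intensities in arbitrary units. The study took 100 units as background, and here an intensity under 100 units was taken as giving no level. Values of 100 to 200 units were counted by the study as near background and as low expression. The E19 pools of Igf2bp1 and Sox11, the P2 pools of Igf2bp3 and the adult pools of Igf2bp2 and Ezh2 lie in that range. Intensities of different probe sets were not set against each other, because hybridization differs between probes.

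Igf2bp proteins bind the coding and non-coding parts of target transcripts, among them Igf2 and H19, and govern their stability, transport and translation. The let-7 microRNAs, which mature late in development, repress several oncofetal transcripts, including Hmga2 and members of the Igf2bp family, and Lin28 proteins block let-7 maturation. Dnmt1 copies DNA methylation onto the new strand after replication, Dnmt3a adds methylation to unmethylated DNA, and Ezh2 is the enzyme of the Polycomb complex that methylates histone H3. Sox4 and Sox11 belong to the SoxC group of progenitor and early neuronal factors, and Hmga proteins bend DNA through AT-hook motifs.

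Of the 10 genes, 9 had a stage mean of 100 units or more and were tested with limma on log2 intensity. A difference was called where the p, corrected after Benjamini and Hochberg over 17808 probe sets, was under 0.05. Hmga2 had no such stage and was not tested. At E19, 9 genes were called higher than in the adult and 0 lower, where 31.4% of 10334 tested genes were called higher and 25.2% lower. At P2, 9 were again higher than in the adult and 0 lower, against a background of 28.8% higher and 21.8% lower. Between E19 and P2, 3 genes were higher at E19, 0 were lower and 6 did not pass, where 2.56% of tested genes were higher at E19 and 3.61% lower. With each array centred on its median over all probe sets, the median difference of the tested probe sets moved by -0.28 at E19 and -0.26 at P2, and the share of genes called higher became 20.2% at E19 and 19.0% at P2, and of those called lower 40.4% and 36.4%. Of the 9 genes, 8 were then still called higher at E19 and 7 at P2. Centred on the medians of the tested probe sets alone, a scaling chosen after the data were seen, 23.7% of genes were higher and 28.5% lower at P2, and the same numbers of the 9 were called. Igf2bp1 and Sox11 were tested only because of their E19 level and Igf2bp3 only because of its E19 and P2 levels, so that these 3 had to differ from the adult, and Igf2bp1 and Sox11 from P2 as well. Both comparisons with the adult use the same 2 adult arrays. The p values rest on the spread between pools, of which there were only 2 per stage. That spread was taken over all 3 stages and drawn towards that of the other tested probe sets. In whole tissue, fewer cells of a type and less RNA per cell cannot be told apart.

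**Figure D1:**
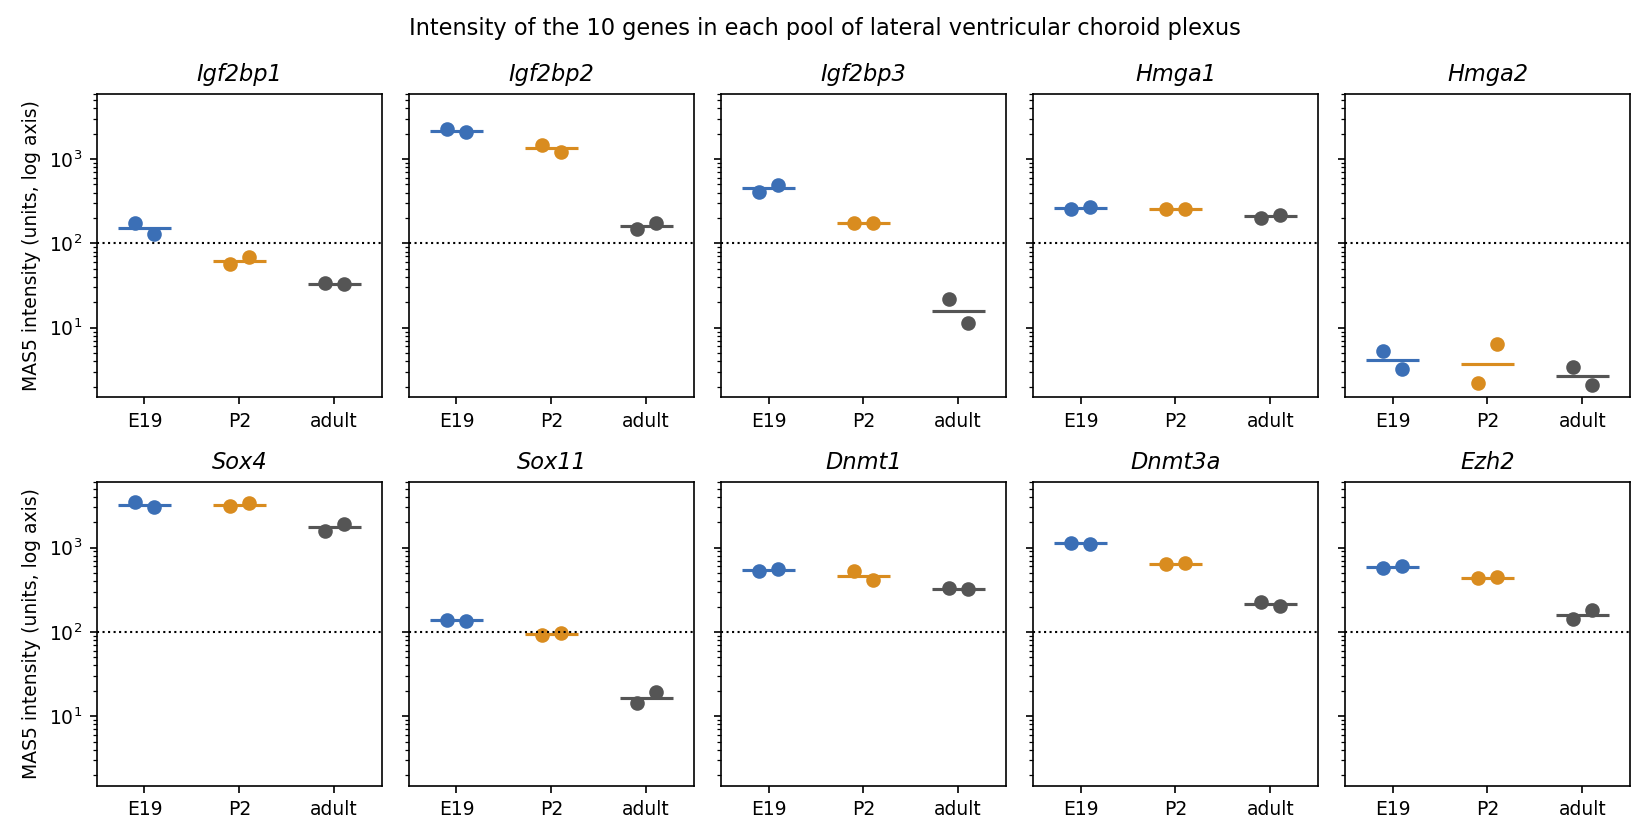
Intensity of the 10 genes (MAS5 units, log axis) in each of the 2 pools at E19, P2 and adult; points are pools, bars are geometric means and the dotted line marks 100 units. Igf2bp3 fell from 407 and 499 units at E19 to 22.03 and 11.3 in the adult, whereas Hmga2 lay under 100 units in all 6 pools.

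Within the Igf2bp family, all 3 genes had their highest intensities at E19 and their lowest in the adult. Igf2bp2, the member that also has roles in adult metabolism, gave 2268 and 2102 units in the E19 pools, 1459.6 and 1223 in the P2 pools and 149.85 and 172 in the adult pools. The 3 stages did not overlap, and the adult pools stood just above 100 units. Igf2bp2 was 13.6-fold higher at E19 than in the adult (log2 difference 3.76, SE 0.13, limma adjusted p = 8.86e-05), and at P2 the difference was 8.32-fold (3.06, adjusted p = 0.000172). It ranked 187 of 10334 genes in its E19 difference from the adult, counted from the highest. In the adult 7.37% of the E19 mean was left.

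Igf2bp3, an oncofetal member found at low levels in most adult tissues, gave 407 and 499 units in the E19 pools, 174 and 177 in the P2 pools and 22.03 and 11.3 in the adult pools. Both adult pools were under 100 units, so the change is a bound, at least 4.51-fold from E19 and at least 1.76-fold from P2. The fitted log2 differences, 4.84 (SE 0.32, adjusted p = 0.000377) and 3.47 (adjusted p = 0.00121), rest on those dim adult values. Igf2bp1, which binds the zipcode of beta-actin mRNA, gave 176 and 129 units in the E19 pools, 56.7 and 68.4 in the P2 pools and 34.0 and 32.7 in the adult pools. It stood above 100 units at E19 only, at least 1.51-fold over the adult (fitted log2 difference 2.18, SE 0.18, adjusted p = 0.000668). Its P2 difference from the adult lay between values that were all under 100 units, and no fold is given for it (adjusted p = 0.0125). Without P2 pool 2 that call was lost (adjusted p = 0.0611).

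Igf2bp1 and Igf2bp2 were also called higher at E19 than at P2. Igf2bp2 was 1.63-fold higher at E19 (log2 difference 0.71, adjusted p = 0.0455) and Igf2bp1, which was tested only through its E19 level, at least 1.51-fold (fitted 1.28, adjusted p = 0.0274). For Igf2bp3 the fitted E19 to P2 difference was 1.36, or 2.57-fold, the largest of the 9 genes, yet it did not pass (adjusted p = 0.0714). Without adult pool 1 or without adult pool 2 the same difference passed (adjusted p = 0.0310 in each case). The call for Igf2bp2 was lost without any 1 of the 6 arrays (log2 0.58 to 0.84). That for Igf2bp1 was lost without either E19 or either P2 pool (log2 1.05 to 1.499). Without an E19 or P2 pool, nearly all E19 to P2 calls over all probe sets were lost, so that these losses are not particular to the genes. Without an adult pool most such calls remained, but not that of Igf2bp2.

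Igf2bp2 and Igf2bp3 had further probe sets. The other probe set of Igf2bp2 gave 275 and 260.4 units in the E19 pools, 121 and 133 in the P2 pools and 68.6 and 108 in the adult pools. Its E19 level was over that of the adult (log2 difference 1.63), but the difference at P2 did not pass (0.55, adjusted p = 0.0955). With an adult mean of 88.4 units, it was tested only through its E19 and P2 levels, which favours a difference from the adult. Both further probe sets of Igf2bp3 had stage means under 100 units throughout and were not tested, with means of 93.4 and 87.4 at E19 and 14.5 and 18.9 in the adult.

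**Figure D2:**
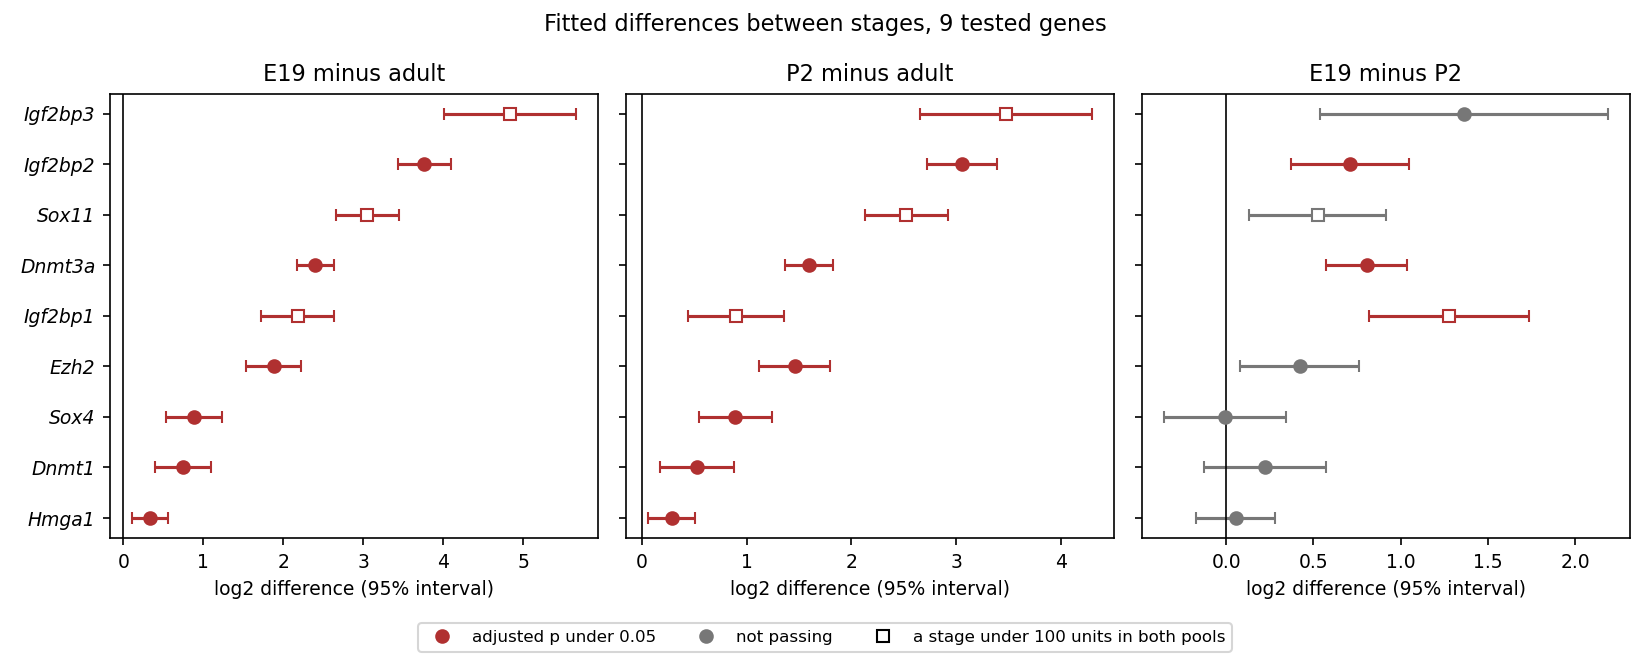
Fitted log2 differences with 95% intervals (limma) for the 9 tested genes, E19 minus adult, P2 minus adult and E19 minus P2; red marks an adjusted p under 0.05, and open squares a stage with both pools under 100 units. Differences from the adult ran from 0.34 (Hmga1) to 4.84 (Igf2bp3) at E19, and between E19 and P2 the interval of Sox4 was -0.36 to 0.34.

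The chromatin enzymes Dnmt3a and Ezh2 were several-fold higher at both developing stages than in the adult. Dnmt3a gave 1144 and 1112 units in the E19 pools, 638 and 653 in the P2 pools and 225 and 204 in the adult pools, with no overlap between stages. The E19 pools were 5.27-fold over the adult ones (log2 difference 2.40, SE 0.09, adjusted p = 9.7e-05), and the P2 pools 3.02-fold (1.59, adjusted p = 0.000327). From E19 to P2 it fell 1.75-fold (log2 difference 0.80, adjusted p = 0.0224). Without either E19 or either P2 pool, nearly all E19 to P2 calls over all probe sets were lost. Dnmt3a then lost its call too (log2 0.78 to 0.82). Its other probe set, with 141 and 122 units in the E19 pools, 68.5 and 111 in the P2 pools and 14.6 and 7.92 in the adult pools, had a stage mean of 100 units or more at E19 only, so that it was tested only for that level and had to differ.

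Ezh2 gave 569.7 and 608 units in the E19 pools, 432 and 448 in the P2 pools and 143 and 179 in the adult pools. Again the stages did not overlap. Ezh2 was 3.68-fold higher at E19 than in the adult (log2 difference 1.88, SE 0.13, adjusted p = 0.000439), and at P2 the difference was 2.75-fold (log2 1.46, adjusted p = 0.00117), while E19 and P2 differed by 0.42, with a 95% interval from 0.08 to 0.76, which did not pass after adjustment (adjusted p = 0.124). A further tested probe set gave log2 differences of 1.99 and 1.74 from the adult, both called. With an adult mean of 95.6 units, it was tested only through its E19 and P2 levels, which favours a difference. The last one stayed under 100 units.

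Dnmt1, the maintenance enzyme, was higher than in the adult at both developing stages, by under 2-fold. It gave 530.0 and 559.5 units in the E19 pools, 528 and 413 in the P2 pools and 328 and 321 in the adult pools. The P2 pools lay apart from each other, 1 close to E19 and the other midway to the adult. Dnmt1 was 1.68-fold higher at E19 than in the adult (log2 difference 0.75, SE 0.14, adjusted p = 0.00828), and at P2 the difference was 1.44-fold (log2 0.52, adjusted p = 0.0284), and E19 did not differ from P2 beyond the pools' spread (0.22, interval -0.13 to 0.57). Without E19 pool 2 the E19 call was lost (0.71, adjusted p = 0.0507). The P2 call was lost when any array but P2 pool 2 was left out (0.35 to 0.54, adjusted p 0.0579 to 0.0916) and under 3 other scalings of the arrays (0.27 to 0.41).

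To show what the promoters of these genes hold, the RefSeq sequences (build GRCr8) of the 300 bases around the transcription start, 250 before it and 50 after, were searched on both strands, and 8 of the 10 genes matched an entry in that table. The words searched were TTTGGCGC, TTTCCCGC, TTTCGCGC and TTTGCCGC, which E2F cell cycle factors can bind, CCAAT, the E box CACGTG, the GC box GGGCGG and TATAAA. Over 33469 promoters of this length, 2.14% held an E2F word, 37.5% CCAAT, 6.42% CACGTG, 33.1% GGGCGG and 14.2% TATAAA. Ezh2 and Dnmt1 are shown because each held an E2F word and CCAAT, Igf2bp3 and Dnmt3a because each held CACGTG, and Igf2bp2 for its many CpG dinucleotides. The capitals mark E2F, CCAAT and CACGTG words.
Ezh2: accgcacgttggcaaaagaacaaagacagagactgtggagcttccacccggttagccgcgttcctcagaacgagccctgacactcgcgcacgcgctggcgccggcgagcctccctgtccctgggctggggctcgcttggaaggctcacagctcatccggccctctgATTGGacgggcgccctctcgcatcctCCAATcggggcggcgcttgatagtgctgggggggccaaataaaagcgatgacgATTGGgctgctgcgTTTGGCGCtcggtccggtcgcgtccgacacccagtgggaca
Dnmt1: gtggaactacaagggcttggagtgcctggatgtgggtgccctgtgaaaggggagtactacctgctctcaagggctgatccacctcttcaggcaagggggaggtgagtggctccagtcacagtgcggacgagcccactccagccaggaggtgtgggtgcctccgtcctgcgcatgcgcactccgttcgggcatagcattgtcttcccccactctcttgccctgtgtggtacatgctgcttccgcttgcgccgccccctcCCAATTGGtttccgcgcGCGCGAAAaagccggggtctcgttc
Igf2bp3: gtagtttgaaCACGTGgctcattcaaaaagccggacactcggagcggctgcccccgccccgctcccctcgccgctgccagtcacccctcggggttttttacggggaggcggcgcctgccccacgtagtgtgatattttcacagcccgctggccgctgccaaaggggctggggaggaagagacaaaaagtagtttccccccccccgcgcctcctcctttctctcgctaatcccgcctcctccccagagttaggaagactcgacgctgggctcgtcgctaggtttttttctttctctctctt
Dnmt3a: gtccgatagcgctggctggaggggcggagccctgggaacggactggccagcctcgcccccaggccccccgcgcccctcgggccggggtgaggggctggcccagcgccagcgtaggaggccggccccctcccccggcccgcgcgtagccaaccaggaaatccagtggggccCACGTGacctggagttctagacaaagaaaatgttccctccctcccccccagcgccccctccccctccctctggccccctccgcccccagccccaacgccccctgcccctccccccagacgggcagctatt
Igf2bp2: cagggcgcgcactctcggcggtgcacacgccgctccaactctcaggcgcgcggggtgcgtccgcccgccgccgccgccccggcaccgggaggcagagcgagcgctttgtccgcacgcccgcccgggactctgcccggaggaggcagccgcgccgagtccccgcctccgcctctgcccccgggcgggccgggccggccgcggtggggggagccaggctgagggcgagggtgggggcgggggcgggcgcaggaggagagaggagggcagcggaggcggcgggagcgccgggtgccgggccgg

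The sequences are given 5′ to 3′ on the strand of the gene. Ezh2 lies at chr4:77687134-77687433 and Dnmt1 at chr8:27762792-27763091, both on the minus strand, Igf2bp3 at chr4:79525681-79525980 on the minus strand, Dnmt3a at chr6:32598352-32598651 on the plus strand and Igf2bp2 at chr11:92378658-92378957 on the plus strand. With the first transcribed base as 1, the E2F word of Ezh2 began at 10 and its CCAAT words at -84, -58 and -5. In Dnmt1 the E2F word began at 26, and the CCAAT words of both strands overlapped at 9 and 12. CACGTG began at -240 in Igf2bp3 and at -80 in Dnmt3a. The Igf2bp2 promoter held 46 CpG and 6 GC boxes, against a median of 7 CpG over all promoters, and 98.6% of promoters had fewer CpG. Hmga1 came close to it with 44 CpG, and Sox11 and Hmga2 had 20 and 10. Matches of this kind are a description of the letters and not of binding.

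Both SoxC factors were higher than in the adult at E19 and P2. Sox4 gave 3429 and 3018 units in the E19 pools, 3081 and 3395 in the P2 pools and 1582 and 1920.4 in the adult pools. The E19 and P2 pools overlapped, and all 4 stood above both adult pools. Sox4 was 1.85-fold higher at E19 than in the adult (log2 difference 0.88, SE 0.14, adjusted p = 0.0047), and at P2 the difference was 1.86-fold (log2 0.89, adjusted p = 0.00545). Between E19 and P2 the difference was -0.01, with an interval from -0.36 to 0.34.

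Sox4 had 7 probe sets, of which 3 were tested. Of the other tested ones, 1 was higher at both stages (log2 differences 0.96 and 0.67, adjusted p = 0.0078 and 0.0276), while the other gave 0.53 at E19 and 0.46 at P2 and did not pass (adjusted p = 0.059 and 0.0924). The remaining 4 had stage means under 100 units, and 1 of them ran the other way, from a mean of 12.01 at E19 to 70.7 in the adult.

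Sox11 gave 139 and 135 units in the E19 pools, 92.98 and 97.999 in the P2 pools and 14.3 and 19.1 in the adult pools. The stages did not overlap, but only the E19 pools stood above 100 units. Sox11 was at least 1.37-fold higher at E19 than in the adult (fitted log2 difference 3.05, SE 0.15, adjusted p = 0.000188). Its P2 difference from the adult passed (adjusted p = 0.000387) between values all under 100 units, and the difference between E19 and P2 did not (fitted 0.52, adjusted p = 0.108). Of 12 neuronal markers on the same arrays, 7, among them Dcx, Rbfox3 and Nefl, lay under 100 units throughout, and 5 were tested. Snap25 was lower than in the adult at both stages, while Stmn2 (198 and 191 units at P2, 47.4 and 25.7 in the adult) and Gap43 (141 and 197 at P2, 52.5 and 50.5 in the adult) were higher at P2 (adjusted p = 0.00435 and 0.00165). Stmn2 and Gap43 had a stage mean of 100 units or more at P2 only, so that they were tested only for that level and had to be higher there. Stmn2, Gap43 and Map2 are named after their values were seen. The summed intensity of the 12, most of it from Map2, was 3118 to 3594 at E19, 3173 to 3384 at P2 and 3175 to 3337 in the adult, and the part of these markers in the Sox11 values was not tested.

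**Figure D3:**
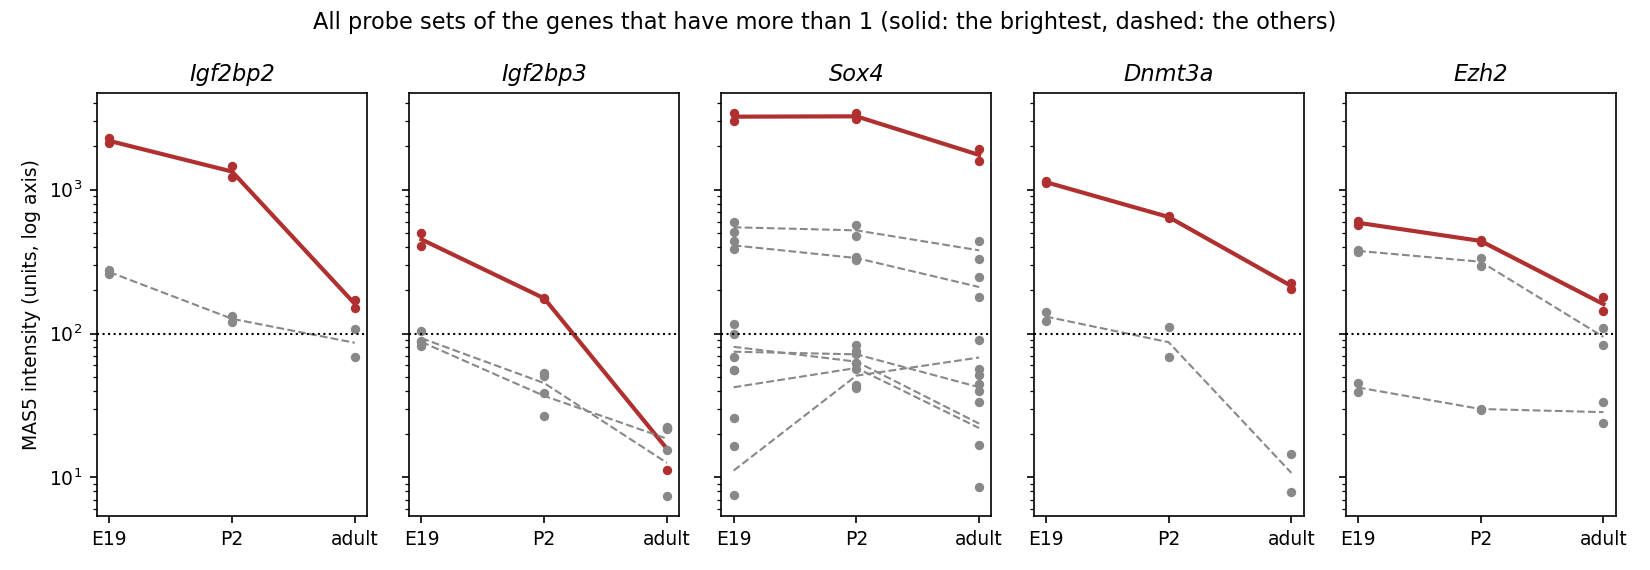
Intensity of every probe set (MAS5 units, log axis) of the 5 genes with more than 1; points are pools, lines join geometric means of a stage, solid for the brightest probe set and dashed for the others, and the dotted line marks 100 units. Of the 12 other probe sets, 5 were tested, and 4 of these were higher at E19 than in the adult, beside 5417 of all 17808 tested probe sets. Those of Igf2bp2, Dnmt3a and Ezh2 had adult means under 100 units and were tested only through a developing stage, which favours a difference.

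Of the AT-hook proteins, Hmga1 was measured close to its adult level. It gave 258 and 271 units in the E19 pools, 253 and 256 in the P2 pools and 201 and 218 in the adult pools. All pools of the developing stages stood above the adult ones, but the differences were small, 1.26-fold at E19 (log2 difference 0.34, SE 0.09, adjusted p = 0.0258) and 1.22-fold at P2 (0.28, adjusted p = 0.048). With each array centred on its median the differences were 0.06 and 0.03, and neither passed (adjusted p = 0.663 and 0.846). Leaving out E19 pool 1, E19 pool 2 or adult pool 1 ended the E19 call (log2 0.28 to 0.37, adjusted p 0.0836 to 0.132), and leaving out any 1 array ended the P2 call (log2 0.22 to 0.34, adjusted p 0.0656 to 0.160). Hmga2, the more strictly fetal member and a let-7 target, gave 5.34 and 3.20 units in the E19 pools, 2.21 and 6.39 in the P2 pools and 3.39 and 2.11 in the adult pools. Those values lie far under 100 units in every pool, and no change can be read from them.

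The genes closest in profile were sought over the 6 arrays by the root mean square of the difference in log2 intensity, with values under 100 set to 100 and each gene centred on its mean. The closest to Igf2bp2 were Bex4 (0.09), with 3731 and 3464 units in the E19 pools, 2455 and 2295.5 in the P2 pools and 272 and 268 in the adult pools, and Fzd1 (0.13), a Wnt receptor. For Dnmt3a they were Cfap90 and Gfra1, for Ezh2 Arhgap18 and Phldb2, for Sox4 Gnai2 and Ap1s1, for Dnmt1 Mturn and the DNA repair gene Fancd2, and for Hmga1 Cetn3 and Ssbp3. Igf2bp3 was closest to Greb1 and Sfn. For Dnmt1 and Fancd2 the adult values of Fancd2, 29.9 and 26.2 units, were set to 100, and its log2 difference between E19 and adult without that step was 2.57 against 0.75 for Dnmt1. Adult values were likewise set to 100 for Cfap90 (44.3 and 45.2), for 1 pool of Gfra1 (82.8) and for both Igf2bp3 and Greb1. For Igf2bp1 (Gata3 and Rnf128) and Sox11 (Tmem245 and Col2a1) most of the profile was at 100 units, so that little of it was compared.

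Among 13 measured target transcripts of Igf2bp proteins and let-7, 8 were tested, of which 3 passed as higher at E19 and 1 as lower (median log2 difference 0.18, against 0.04 over all tested genes). The shares over all tested genes were 31.4% higher and 25.2% lower, near these counts. At P2, 2 of the 8 targets were higher and 1 lower (median -0.02, against 0.05), and with each array centred on its median the E19 median of the targets turned to -0.09. H19, the imprinted non-coding RNA, gave 1638 and 1379 units in the E19 pools, 816 and 941 in the P2 pools and 62.6 and 42.7 in the adult pools. Its change was at least 15.0-fold at E19 and at least 8.76-fold at P2 (adjusted p = 0.000137 and 0.000263). Igf2, from which the family takes its name, ran the other way, 1.26-fold lower at E19 than in the adult and 1.32-fold lower at P2 (log2 -0.34 and -0.40, adjusted p = 0.025 and 0.017), and under quantile normalization the P2 difference did not pass (-0.26, adjusted p = 0.0509). Ccnd2, a G1 cyclin, was 1.70-fold higher at E19 and the Ras gene Nras 1.67-fold. Myc, Mycn, Cd44, Cdk6 and Arid3a stayed under 100 units on all arrays.

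Of 12 tested partners of Igf2bp proteins and let-7 processing genes, 8 were higher and 1 lower at E19 (median 0.49), and 5 were higher and 2 lower at P2 (median 0.30). Over all tested genes 31.4% were higher at E19 and 28.8% at P2. Dicer1, which cuts microRNA precursors, was 2.36-fold higher at E19, Tut4, which adds uridines to precursors of let-7, 1.99-fold, Dis3l2, which degrades uridylated let-7 precursors, 1.63-fold, and the RNA-binding Hnrnpu 1.58-fold. Msi2, an RNA-binding protein of stem cells, was 1.71-fold lower. Lin28a lay under 100 units on every array. With each array centred on its median, 4 of the 12 were higher and 2 lower at E19, 1 was higher and 2 lower at P2 (median 0.05), and the Tut4 and Dicer1 calls at P2 were lost (log2 0.31 and 0.37).

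**Figure D4:**
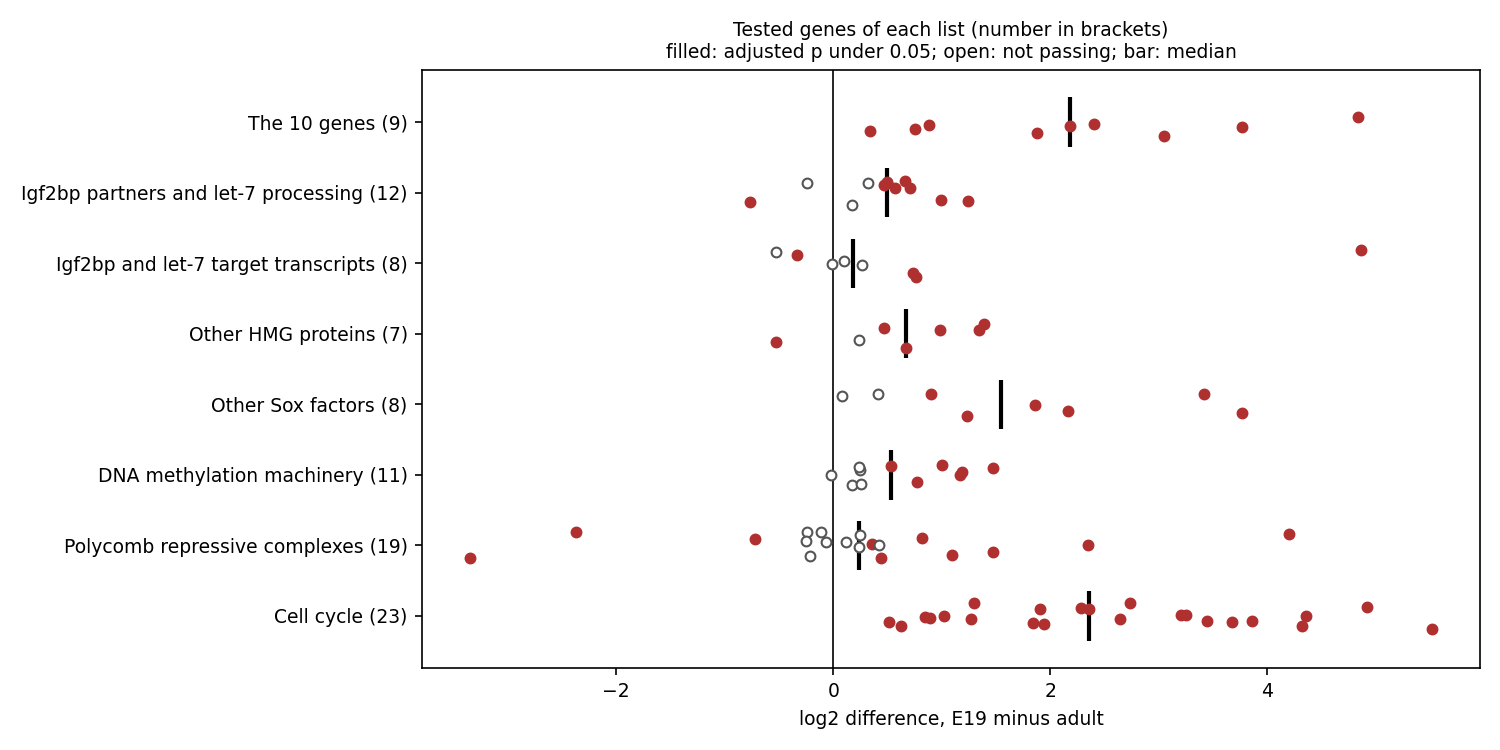
Log2 differences, E19 minus adult, of the tested genes of each list; each point is a gene, filled where the adjusted p was under 0.05, and the bar is the median. The cell cycle list lay wholly above 0 with a median of 2.36, and the Polycomb list reached from -3.35 (Cbx7) to 4.20 (Cbx2). The Cbx2 value rests on adult pools of 18.2 and 2.60 units. Points that rest on values under 100 units, among them many cell cycle genes, are not marked.

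Other high mobility group genes were higher at E19 in 5 of 7 cases and lower in 1 (median 0.67), and at P2 in 5 and 0 (median 0.76). The shares of all tested genes called higher were 31.4% at E19 and 28.8% at P2. Hmgn2, a nucleosome-binding protein, was 2.62-fold higher at E19, Hmgb3 2.54-fold, Ssrp1, a subunit of the FACT histone chaperone, 1.98-fold and Hmgb1 1.59-fold, and Hmg20b was 1.44-fold lower. Centring each array on its median left 3 of the 7 higher at E19, and the Hmgb1 difference was lost (log2 0.39, adjusted p = 0.0572). Of 8 other Sox factors tested, 6 were higher and 0 lower at E19 (median 1.55), and the same counts held at P2 (median 1.73). Sox3, Sox7, Sox15, Sox17 and Sox18 had both adult pools under 100 units and were tested only through their E19 and P2 levels. Their direction was thus set by the filter, and the medians rest in part on dim adult values. Sox3, a SoxB1 factor, was at least 4.10-fold higher at E19 than in the adult. Sox7, Sox17 and Sox18, the SoxF factors of vessels, were at least 3.31-fold, 2.34-fold and 3.20-fold higher at E19. Sox17 gave 239 and 229 units in the E19 pools, 637 and 549 in the P2 pools and 62.8 and 66.1 in the adult pools, and was lower at E19 than at P2 (log2 -1.34). Sox6 was 2.35-fold higher at E19 than in the adult.

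In the DNA methylation list, 6 of 11 tested genes were higher and 0 lower at E19 (median 0.53), beside 31.4% of all tested genes called higher. At P2, 7 of the 11 were higher and 0 lower (median 0.38), beside 28.8%. Centring each array on its median gave 5 higher at E19 (median 0.26) and 3 at P2 (median 0.12). Tet3 and Tet1, which oxidize methylcytosine, were 2.77-fold and 2.24-fold higher at E19, and Hells and Uhrf2, a chromatin remodeller and a ubiquitin ligase, 2.00-fold and 1.71-fold. Uhrf1, which brings Dnmt1 to replicating DNA, gave 64.4 and 75.4 units in the E19 pools, 306 and 204 in the P2 pools and 32.9 and 28.5 in the adult pools. It stood above 100 units at P2 only, at least 2.498-fold over the adult, and its call at E19 lay between values all under 100 units. Dnmt3b, the other de novo methyltransferase, lay under 100 units on all arrays.

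Of 19 tested Polycomb genes, 7 were higher and 3 lower at E19 (median 0.24) and 8 higher and 4 lower at P2 (median 0.18), beside 31.4% and 28.8% of all tested genes called higher. Cbx7, a chromodomain subunit of the complex that ubiquitinates histones, gave 98.5 and 114 units in the E19 pools, 244 and 269 in the P2 pools and 1179 and 982 in the adult pools. It was 10.2-fold lower at E19 than in the adult (log2 -3.35, SE 0.14, adjusted p = 0.000121) and 4.20-fold lower at P2. Its relative Cbx2 was at least 1.26-fold higher at E19, while Jarid2, which accompanies Ezh2, was 2.78-fold higher. Eed and Suz12, on the same list and named after their values were seen, were not called at E19 (log2 -0.12 and -0.24). At P2 Eed was lower (-0.36, adjusted p = 0.0435) and Suz12 was not called (0.14). Phf1 was at least 1.55-fold lower at E19, and Phf19 was called higher at E19 between values all under 100 units and was at least 1.27-fold higher at P2. Ezh1, the other enzyme of the Ezh2 complex, is named here after its values were seen. It gave 256 and 243 units in the E19 pools, 330 and 301 in the P2 pools and 427 and 398 in the adult pools, 1.65-fold lower at E19 (log2 -0.72, adjusted p = 0.0029). With each array centred on its median, 5 Polycomb genes were higher and 7 lower at E19 (median -0.04), and 4 were higher and 7 lower at P2 (median -0.08).

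Cell cycle genes were higher at the same stages. All 23 tested were higher at E19 than in the adult (median log2 difference 2.36) and 22 at P2 (median 2.19), beside 31.4% and 28.8% of all tested genes. Many of them, such as Cdk1, Mki67 and Bub1b, had both adult pools under 100 units. These were tested only through a developing stage and had to differ from the adult, and the medians rest in part on such dim values. The summed intensity of the list was 18873 to 19759 at E19, 18080 to 18691 at P2 and 6228 to 6448 in the adult. Cdk1 was at least 17.7-fold higher at E19 than in the adult, Ccnb2 at least 13.2-fold, Mki67 at least 9.70-fold, Ccna2 at least 6.14-fold and Bub1b at least 2.49-fold. With each array centred on its median, 22 of the 23 were higher at E19. Dnmt1 and Ezh2 are known to be expressed with replication, and the part of cell number or division in the values of the 10 genes was not tested.

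Markers of the cells of the plexus were counted as well. Called higher over all tested genes were 31.4% at E19 and 28.8% at P2, and called lower 25.2% and 21.8%. At E19 the macrophage and epithelial markers were called higher at a rate near that share. Some markers had both adult pools under 100 units and were tested only through E19 or P2, which favours a difference. All 10 tested endothelial markers were higher at E19 and at P2, with summed intensities of 11060 to 11613 at E19, 10654 to 11136 at P2 and 2134 in both adult pools. Of 10 tested fibroblast and matrix markers, 7 were higher and 2 lower at E19 (summed over 11 markers, 23575 to 23700 at E19, 24370 to 28471 at P2 and 8698 to 9315 in the adult), and of 7 mural markers 4 were higher and 1 lower (summed over 8, 2910 to 3062, 3282 to 3337 and 877 to 894). Macrophage markers were higher in 3 and lower in 1 of 10 at E19 and higher in 8 of 10 at P2 (summed over 13, 3038 to 3041, 3696 to 4464 and 1905 to 1924). Erythroid markers were higher in 4 of 4 at E19 (summed over 5, 21604 to 22107, 18114 to 19374 and 14489 to 14879). Most of the erythroid sum was Hbb, with 18966 and 18694 units in the E19 pools and 14475 and 14045 in the adult pools. Of 8 neural progenitor markers, 3 were tested, 2 higher and 1 lower at E19 (summed over 8, 753 to 1013, 1267 to 1638 and 553 to 593), and 5, among them Eomes and Neurog2, lay under 100 units throughout. Of 11 epithelial markers of the plexus, 10 were tested and Kcnj13, named after its values were seen, lay under 100 units on all 6 arrays. Ttr stood at 10837 to 14847 units, and Kl was lower at E19 (803 and 832 units) and P2 (829 and 918) than in the adult (2971 and 2574). At E19, 4 of the 10 were higher and 2 lower (median 0.08), but with each array centred on its median 1 was higher and 4 lower (median -0.20). Under the same centring, macrophage markers were higher in 3 and lower in 3 of 10 at E19 and higher in 5 at P2. The part of all these markers in the values of the 10 genes was not tested.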

How the data were processed

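RNA from 2 pools of lateral ventricular choroid plexuses per stage was amplified and hybridized by the authors to GeneChip Rat Genome 230 2.0 arrays. The deposited values are intensity on a linear scale. To obtain them, the authors ran the MAS5 algorithm of Affymetrix Expression Console (version and target value not given in the sources used here), which scales each array to a common trimmed mean. For arrays, the number of pools limits the precision. The table held 31099 probe sets with 57 controls and 0 missing values, and 50.0 to 53.5% of probe sets per array reached 100 units. In each stage 99.6 to 99.9% of the probe sets at 100 units or more in both pools agreed within 2-fold.

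Non-control probe sets with any stage mean of 100 units or more, 17808 in all, were fitted on the log2 scale (limma 3.58.1, R 4.3.3), each stage having its own mean over the 6 arrays, with 3 residual and 2.15 prior degrees of freedom. The procedure was tested on simulated data. Every p of a gene comes from limma, adjusted over all tested probe sets. A stage with both pools under 100 units entered a fold as 100, which makes the fold a bound, and no fold was formed between a pair of such stages. A gene with such a stage was tested only through its other stages, which favours a difference from it. Matching to genes was through the array's annotation, which gave 20832 a single gene and 436 several, and through the RefSeq gene table of GRCr8, in which 68 gene numbers found no match.

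Named besides the 10 genes were up to 5 called genes of each related list with the largest difference between E19 and adult, the 2 closest profiles of each tested gene, and markers of cell types. The lists covered Igf2bp partners and let-7 processing, Igf2bp and let-7 targets, other HMG proteins, other Sox factors, DNA methylation, Polycomb complexes, the cell cycle, and markers of epithelium, fibroblasts, endothelium, mural cells, macrophages, erythroid cells, neurons and neural progenitors. Genes and lists were chosen with earlier results of these data known. Pool numbers come from the labels, which give no shared animal or day. The differences of pool 1 from pool 2 correlated between stages at -0.06, -0.04 and 0.01, so that the numbers do not pair samples. Alternatives changed the filter, scaling, low values, arrays in the fit, spread estimate, block, probe sets, threshold and arrays left out. A stage left with a lone array was taken to vary like the others. Figures were drawn with matplotlib 3.10.9.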

Additional observations from a re-analysis of the deposited data

How the results depend on the processing

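The direction of the tested genes against the adult held under the alternatives run, except that setting values under 100 units to 100 put the P2 difference of Igf2bp1 and Sox11 at 0. The filter at 200 units tested 7 of the 9, without Igf2bp1 and Sox11. Between 7 and 9 genes were called at E19 and between 6 and 9 at P2. The number higher at E19 than at P2, 3 as reported, was 0 with no filter (5 genes at an unadjusted p under 0.05) and 0 at an adjusted p under 0.01. In both settings 0 of all probe sets were called between E19 and P2, so that the number could only be 0. With the pool number as a replicate block the number was also 0 (6 at an unadjusted p under 0.05). Over all probe sets 49 were then higher and 72 lower, against 624 and 645. The block ended 1 other call, Hmga1 at P2 (adjusted p = 0.0719). Leaving out any E19 or P2 pool ended nearly all calls between E19 and P2 over all probe sets, those of these genes included. Why the block left so few calls was not tested. Sox4, at -0.01 between E19 and P2, changed sign to 0.0015 with arrays centred on the medians of tested probe sets and to 0.12 as the mean of its probe sets, and with arrays left out ran from -0.10 to 0.084 (0.084 without E19 pool 2 and 0.062 without P2 pool 2). None of these passed. Hmga1 lost its call in 9 of 18 alternatives at E19 and 14 at P2, and Dnmt1 in 1 and 11. Of the 480 values of single genes under an alternative, 400 kept direction and side of the threshold, 68 lost the call and 8 gained it. With 2 pools per stage, differences that did not pass, such as Ezh2 between E19 and P2, are not shown to be absent.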
